A study of Mus musculus with 15 samples.

Results

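The genes described here encode the subunits of the 5 oxidative phosphorylation (OXPHOS) complexes of mouse liver mitochondria. They were chosen by symbol among protein-coding genes of GENCODE M21: 99 genes, of which 13 lie on the mitochondrial genome (mtDNA) and 86 on nuclear chromosomes. A gene was kept if 3 or more libraries had it at 1 or more on the log2 scale over the table's lowest value, and 91 members passed, all 13 of mtDNA and 78 nuclear ones, among 11568 kept genes of 54281 in the table. The kept members of complex I were 7 of mtDNA and 36 nuclear genes. Complex II had 4 nuclear members and none on mtDNA. Complex III had 1 and 8, complex IV 3 and 13, and complex V 2 and 17.

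The livers came from 15 male C57BL6J mice aged 9.5 months, with 1 library per animal. Of the 4 groups, chow saline with 3 mice and chow MCOPPB with 5 ate chow and had the vehicle of the carcinogen. The 4 mice of DEN/HFD saline and the 3 of DEN/HFD MCOPPB received the liver carcinogen diethylnitrosamine (DEN) at 25 mg/kg when 2 weeks old, and from week 6 a high fat diet (HFD) with 60% of its energy from lard, for 32 weeks. MCOPPB binds the opioid receptor for nociceptin (orphanin FQ) and, per the title of the series, was studied as a drug that removes senescent cells. It was injected intraperitoneally at 5 mg/kg in 3 cycles over 21 days, each of 5 daily injections and 2 days of washout, and control mice had saline. DEN and the diet were given together, so their contributions cannot be told apart. The comparisons ask whether either factor moved the OXPHOS transcripts of liver, and whether those made in the mitochondrion moved like those made in the nucleus.

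OXPHOS complexes I to IV pass electrons from NADH and succinate to oxygen and, except for complex II, pump protons across the inner mitochondrial membrane; complex V uses the proton gradient to make ATP. All of mtDNA's messenger RNAs encode OXPHOS subunits. They are transcribed by the mitochondrial RNA polymerase (Polrmt) with the factor Tfam, as long transcripts that are cut at the tRNAs between the genes, whereas each nuclear subunit gene has a promoter of its own. All mtDNA members but mt-Nd6 are read from one strand, and mt-Nd6 from the other, the L strand. Liver is rich in mitochondria.

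Neighbouring mtDNA genes share bases, which limits how reads can be assigned between them. On GRCm38, mt-Nd4l and mt-Nd4, both subunits of the membrane arm of complex I, share 7 bases at chrM:10167-10173, and mt-Atp8 and mt-Atp6, subunits of the membrane part of ATP synthase, share 43 bases at chrM:7927-7969. Both pairs are carried on bicistronic messenger RNAs. The windows are shown from the GENCODE M21 transcripts, with the shared bases in capitals.
mt-Nd4l and mt-Nd4, chrM:10147-10193, plus strand: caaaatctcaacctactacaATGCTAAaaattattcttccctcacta
mt-Atp8 and mt-Atp6, chrM:7927-7969, plus strand: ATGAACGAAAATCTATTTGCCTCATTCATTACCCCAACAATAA
On opposite strands, mt-Nd5 and mt-Nd6 share 14 bases. The libraries were directional, but whether the authors' counting used the strand is not given in the sources used here, so reads from a gene and its antisense partner may not have been told apart.

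For nuclear members, sequence before a RefSeq start of the gene is shown where NRF1, a factor known for driving respiratory chain genes, has its full palindrome. RefSeq windows of GRCm38.p6, from 250 bases before to 50 after the start, were matched for 67 of 85 nuclear symbols. The first window listed for each gene was used. The palindrome, the letters TGCGC preceded by their reverse complement, was in 5 of the 67 windows (7.46%) and in 1.32% of 17491 windows of protein-coding genes. The shorter NRF1 motif TGCGCA, which can overlap the palindrome at its edge, was in 25.4% against 10.1%. The motif CCGGAAG of ETS factors such as GABP was in 22.4% against 11.9%, the YY1 motif AAGATGGC in 11.9% against 3.22%, and TCAAGGTCA of the estrogen-related receptors in 2.99% against 0.332%. CCAAT was in 43.3% against 39.0% and TATAAA in 10.4% against 13.3%. Both strands were searched, and a match describes letters, not binding. The 3 windows below hold the 250 bases before the start. They belong to Cox6a1 and Atp5k, the nuclear members of complexes IV and V with the highest level per kb, and to Atp5g2, the nuclear member of complex V with the smallest p in both MCOPPB comparisons within a diet. The Atp5g2 window lies within the GENCODE M21 gene (chr15:102662864-102672352), so it precedes a start inside that gene. Capitals mark the NRF1 palindrome, the shorter NRF1 motif and, in Cox6a1, the ETS motif read from the other strand.
Cox6a1, chr5:115348959-115349208, minus strand: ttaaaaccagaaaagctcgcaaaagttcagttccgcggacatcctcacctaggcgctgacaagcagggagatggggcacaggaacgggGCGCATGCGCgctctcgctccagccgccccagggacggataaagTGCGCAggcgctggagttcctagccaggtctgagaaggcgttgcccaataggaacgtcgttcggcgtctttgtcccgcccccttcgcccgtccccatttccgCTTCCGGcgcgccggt
Atp5k, chr5:108434400-108434649, minus strand: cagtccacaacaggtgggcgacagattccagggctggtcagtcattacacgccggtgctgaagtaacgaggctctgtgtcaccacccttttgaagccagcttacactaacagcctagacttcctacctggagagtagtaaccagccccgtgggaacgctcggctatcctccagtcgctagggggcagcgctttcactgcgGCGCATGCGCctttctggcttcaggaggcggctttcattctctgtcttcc
Atp5g2, chr15:102671048-102671297, minus strand: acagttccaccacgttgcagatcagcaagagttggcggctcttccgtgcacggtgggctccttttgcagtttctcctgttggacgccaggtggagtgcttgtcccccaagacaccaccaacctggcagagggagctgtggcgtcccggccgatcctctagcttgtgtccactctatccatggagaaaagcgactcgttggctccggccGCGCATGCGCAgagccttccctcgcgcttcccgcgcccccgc

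Levels are given as normalized counts, the deposited values taken back from their log2 scale. With M for mega, normalized counts summed to 12.4 to 19.1 M per library. The spacing of the lowest values put the depth at an estimated 9.32 to 18.7 M reads, but reads could not be recovered, so no counting interval is given. All 8 hepatocyte markers were present in all 15 libraries, and their sum lay between 1646000 and 3920000. Striated muscle markers, 6 in the list, summed to 3266 in chow saline 3, 2778 in chow MCOPPB 4, 195.7 in chow saline 1, 50.24 in DEN/HFD MCOPPB 1 and 25.6 in chow saline 2, and were all at the lowest value in the other 10 libraries. The sum of 8 macrophage markers was 752 to 1090 in chow saline and 1384 to 3283 in the other groups, so these ranges did not overlap. The RNA integrity number (RIN) listed first in the labels was 9.9 to 10 in chow MCOPPB and 8.4 to 9.7 in the others. A second value is listed for each sample, from 8.9 to 9.6, and the labels do not say how they differ. In label order, the second values begin with 9.1, 9.6, 9.6, 9.2, 8.9 and 8.9 in both the chow and the DEN/HFD samples. The second list may therefore hold a copying error, which limits its use as a covariate below.

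The 13 mtDNA members took between 12.0% and 30.8% of all normalized counts in a library, and the 78 kept nuclear members between 0.523% and 1.11%. The 3 highest mtDNA shares were in chow MCOPPB 4 (30.8%), chow saline 2 (29.0%) and DEN/HFD saline 1 (23.1%), that is, in 3 different groups, and the lowest was in DEN/HFD saline 4 (12.0%). Group means on chow were 23.6% ± 4.95 (SD, n = 3) with saline and 19.9% ± 6.25 (n = 5) with MCOPPB. Under DEN/HFD they were 16.5% ± 4.72 (n = 4) with saline and 19.5% ± 0.923 (n = 3) with MCOPPB. All these ranges overlapped. In whole liver, fewer cells of a type and less RNA per cell cannot be told apart.

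On the log2 scale, the mean level of the mtDNA members exceeded that of the nuclear members by 5.54 to 6.91. The difference was 6.91, 6.51 and 5.96 in the chow saline libraries and 6.24, 6.38, 6.08, 6.47 and 5.54 in the chow MCOPPB libraries. It was 6.17, 5.63, 6.12 and 6.01 in the DEN/HFD saline libraries and 6.20, 5.83 and 5.80 in the DEN/HFD MCOPPB libraries. In descending order the group means were 6.46 ± 0.48 (SD, n = 3) for saline and 6.14 ± 0.36 (n = 5) for MCOPPB on chow, then 5.98 ± 0.25 (n = 4) for saline and 5.95 ± 0.22 (n = 3) for MCOPPB under DEN/HFD. Neighbours in this order differed by less than their spread, and 3 chow libraries lay within the range of the DEN/HFD libraries (chow saline 3 and chow MCOPPB 3) or below it (chow MCOPPB 5). As a score over chosen genes, the difference was given no test.

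**Figure D1:**
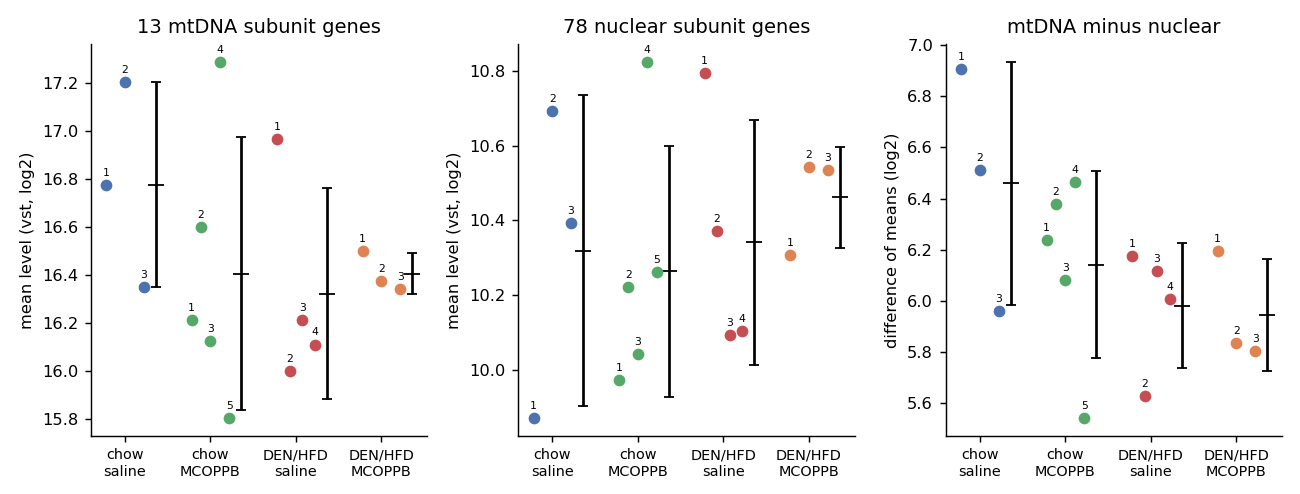
Mean level of the 13 mtDNA and the 78 kept nuclear OXPHOS subunit genes in each library (vst, log2) and the difference of both means; points are libraries with their replicate numbers, bars are group means ± SD. The highest nuclear means, 10.82 in chow MCOPPB 4 and 10.80 in DEN/HFD saline 1, come from different groups, and the difference ranges from 5.54 in chow MCOPPB 5 to 6.91 in chow saline 1.

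Levels per kb used the exon length of a gene, with all its annotated exons merged. For nuclear genes this length can exceed that of any single transcript, so their levels per kb depend on the annotated isoforms. Among mtDNA members, levels per kb spanned almost 3 orders of magnitude. The complex IV subunit mt-Co2 had the highest mean, 629000 normalized counts per kb, followed by mt-Atp6 at 600000, mt-Cytb, the mtDNA subunit of complex III, at 428000, mt-Co3 at 419000 and mt-Co1, the catalytic subunit of complex IV, at 361000. Complex I genes were lower, from mt-Nd2 at 204000 to mt-Nd5 at 34600, and mt-Nd6 was at 910. The nuclear members per kb were highest for Cox6a1 at 5310, Uqcrb, a small subunit of complex III, at 4050, Atp5k at 2830, Ndufa1, a membrane arm subunit of complex I, at 2280, and Sdhd, a membrane anchor of succinate dehydrogenase, at 887, each the highest of its complex. The medians over nuclear members of complexes I to V were 600, 795, 1600, 1380 and 814 per kb.

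The 8 members that did not pass the filter were isoforms known from other tissues or conditions, and a duplicate entry. Of the testis isoforms, Cox7b2 and Cox8c had 0 normalized counts in each of the 15 libraries, and Cox6b2 reached at most 3.23 normalized counts. The lung isoform Cox4i2 was above the lowest value in 1 library (2.66), against a mean of 3840 for the general isoform Cox4i1. The hypoxia-responsive Ndufa4l2 reached 36.6, against a mean of 3310 for Ndufa4. A second gene named Atp5o (ENSMUSG00000116933) overlaps the first and reached 9.43. The heart and muscle isoforms Cox6a2 and Cox8b were above the lowest value in 4 and 5 libraries. Cox6a2 reached 68.6 in chow MCOPPB 4 and 24.4 in chow saline 3, and Cox8b 21.0 and 23.7 there. These are the libraries with the highest sums of striated muscle markers; the part of muscle RNA in the levels of the other members was not tested. Among isoforms that passed, the muscle isoform Cox7a1 had a mean of 44.2 per kb against 874 for Cox7a2, and the 3 genes of the c-ring subunit had 176 (Atp5g1), 71.0 (Atp5g2) and 1230 (Atp5g3) per kb.

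Between MCOPPB and saline on chow, no member was called: limma gave 0 of 13 mtDNA and 0 of 78 nuclear members at an adjusted p under 0.05, against 0.320% of all kept genes. At an unadjusted p under 0.05 there were 0 and 2 members, against 9.06% of all genes. The median difference, MCOPPB minus saline, was -0.42 for the mtDNA members, with 12 of 13 negative, and -0.07 for the nuclear members, with 51 of 78 negative, beside 50.1% positive and a median of 0.00 over all kept genes. All members are measured in the same libraries, so their signs are not independent of each other, here and in the comparisons below. The mean log2 level of the mtDNA members was 16.35 to 17.21 in chow saline and 15.80 to 17.29 in chow MCOPPB, with overlap. The mtDNA differences lay between -0.57 (mt-Nd2) and -0.27 (mt-Nd3), except mt-Nd6 at 0.31. Their SE was near 0.36, and the 95% interval of mt-Nd4, the mtDNA member with the smallest p, was -1.27 to 0.16 around -0.56 (adjusted p = 0.677).

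Sdhc, the cytochrome b anchor subunit of succinate dehydrogenase, had the smallest p of any member on chow. Its normalized counts were 1010, 884 and 1160 in the saline mice and 1310, 1590, 1630, 1190 and 1710 in the MCOPPB mice. All 5 treated mice were above all 3 saline mice, the sole member for which the groups did not overlap on chow, against 4.77% of all kept genes. The difference of 0.51 ± 0.17 (SE) had an adjusted p of 0.321 and was not called. In the other subunits of the same complex, where the groups overlapped, the differences were 0.38 for Sdha, -0.05 for Sdhb and -0.03 for Sdhd. Under DEN/HFD, Sdhc was at 1090, 1240, 1310 and 1400 with saline and at 1270, 1060 and 1300 with MCOPPB, and the groups overlapped. Sdhc also had the smallest p among nuclear members for the difference between both MCOPPB effects, -0.56 ± 0.24 (adjusted p = 0.804). Atp5g2 came next on chow, at 45.0, 110 and 0 in saline mice and 89.3, 180, 93.6, 285 and 127 in MCOPPB mice. The groups overlapped, 1 library was at the lowest value, and the difference of 1.17 ± 0.44 had an adjusted p of 0.406. In complexes I, III and IV the smallest p belonged to Ndufb2 at -0.41 ± 0.32, Uqcrc2 at 0.21 ± 0.20 and Ndufa4 at -0.21 ± 0.20. The first RIN was 9.0 to 9.7 with saline and 9.9 to 10.0 with MCOPPB. With it as a covariate, Atp5g2 turned to -0.13 ± 0.50, while Sdhc was at 0.61 ± 0.25, Ndufb2 at -1.11 ± 0.43 and Uqcrc2 at 0.55 ± 0.28, none of them called. The macrophage marker sums of both chow groups did not overlap either, and their part in these differences was not tested.

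MCOPPB under DEN/HFD also left no member called, with 0.0259% of all kept genes called. No member had an unadjusted p under 0.05, against 4.74% of all genes. The median difference was 0.08 for mtDNA members (9 of 13 positive) and 0.14 for nuclear members (60 of 78 positive), against 49.3% positive and a median of 0.00 over all kept genes. The groups did not overlap for 2 nuclear members, against 6.96% of all kept genes. Ndufa10, an accessory subunit of complex I, was at 2310, 2470, 2270 and 1470 with saline and at 2520, 2680 and 3280 with MCOPPB, a difference of 0.41 ± 0.24. Uqcrc1, a core subunit of complex III, was at 1340, 1380, 1380 and 1430 with saline and at 1140, 1150 and 1170 with MCOPPB, a difference of -0.24 ± 0.16. Both had an adjusted p of 1. With totals made equal without mtDNA, Uqcrc1 changed sign, to 0.05. The smallest p in complexes II, IV and V were those of Sdha at -0.27 ± 0.27, Cox5a at 0.17 ± 0.19 and Atp5g2 at 0.49 ± 0.46. The difference between the MCOPPB effects of both diets was positive for 12 of 13 mtDNA members, with a median of 0.52, against 49.4% of all genes, and no member was called, against 0.0692% of all genes; 0 mtDNA members and 1 nuclear member had an unadjusted p under 0.05, against 5.90%.

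**Figure D2:**
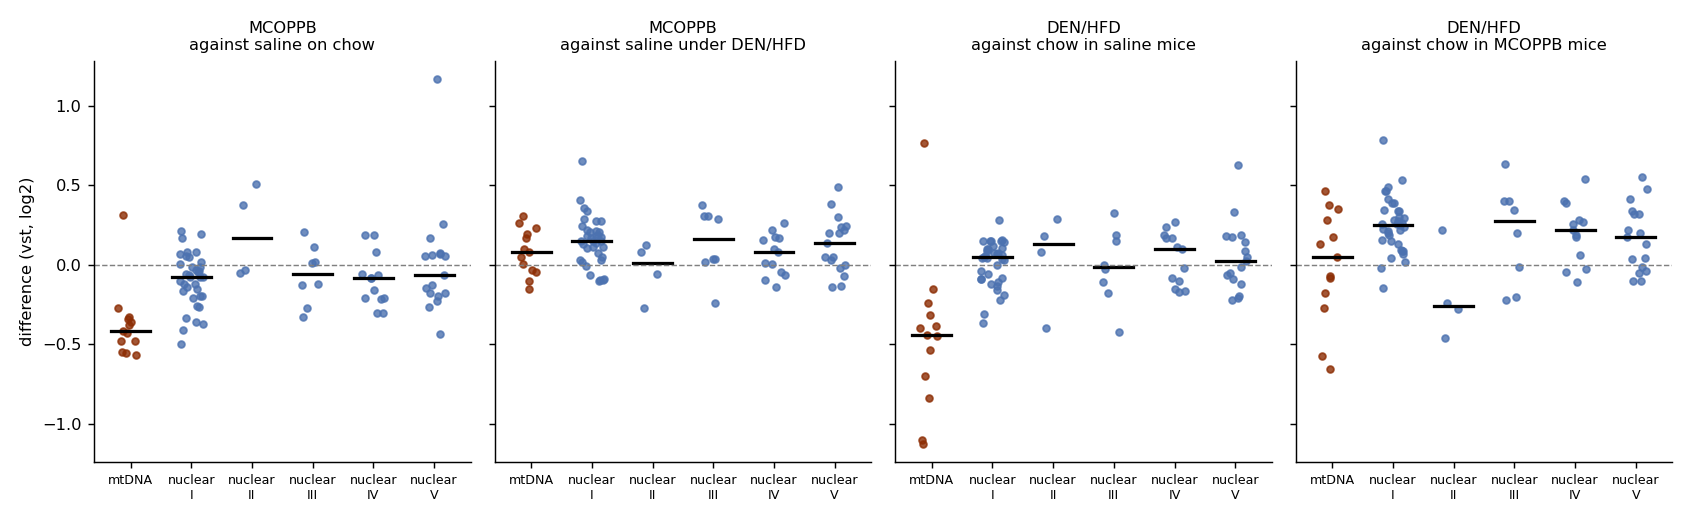
Log2 difference of each kept member in the 4 comparisons within a diet or a treatment; points are genes, grouped as mtDNA members and nuclear members of complexes I to V, and bars are medians. The mtDNA points lie below 0 in MCOPPB against saline on chow (median -0.42) and in DEN/HFD against chow in saline mice (median -0.44) except mt-Nd6; both comparisons use the same 3 chow saline libraries.

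DEN/HFD against chow in saline mice gave the widest spread among mtDNA members, from -1.12 for mt-Nd4l to 0.77 for mt-Nd6. No member was called by limma here, against 0.0519% of all kept genes. The median was -0.44 over the mtDNA members (12 of 13 negative) and 0.05 over the nuclear members (44 of 78 positive), beside 51.4% positive and a median of 0.01 over all genes. This comparison and MCOPPB on chow share the 3 chow saline libraries, and the medians of mtDNA members there are not independent of each other. At an unadjusted p under 0.05 there were 2 mtDNA members and 0 nuclear members, against 11.0% of all genes. No member's groups failed to overlap, against 9.09% of all genes.

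The 2 mtDNA members were mt-Nd4l and mt-Nd5, both membrane arm subunits of complex I. mt-Nd4l was at 28400, 32800 and 11900 normalized counts in chow saline and at 11500, 6470, 11300 and 12700 in DEN/HFD saline. Chow saline 3 lay within the DEN/HFD range, and the difference of -1.12 ± 0.42 had an adjusted p of 0.311. mt-Nd5 was at 89500, 132000 and 59900 against 60500, 26600, 46600 and 39200, with overlap by chow saline 3 alone and a difference of -1.10 ± 0.42 (adjusted p = 0.333). mt-Co1 was at 961000, 916000 and 473000 against 478000, 245000, 526000 and 490000, a difference of -0.84 ± 0.40 (adjusted p = 0.455). mt-Nd6 went the other way, at 146, 491 and 303 against 1290, 372, 481 and 359, and its difference of 0.77 ± 0.37 had an adjusted p of 0.466. The nuclear members with the smallest p were Uqcrh, the hinge protein of complex III, at -0.43 ± 0.22, and Sdhd at -0.40 ± 0.22, with adjusted p of 0.494 and 0.537. Ndufs6, Cox8a and Atp5g2 had the smallest p in complexes I, IV and V, at 0.28 ± 0.22, 0.24 ± 0.23 and 0.63 ± 0.46.

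In MCOPPB mice, DEN/HFD against chow left no member called, against 0.571% of all genes, and none at an unadjusted p under 0.05, against 12.3%. The groups overlapped for all members, while 9.31% of all genes had groups that did not. The median was 0.05 for mtDNA members (7 of 13 positive) and 0.22 for nuclear members (62 of 78 positive), against 49.4% positive among all genes. Nuclear members of complex I were positive in 34 of 36 cases, with Ndufa1 at 0.54 ± 0.28, and those of complex II in 1 of 4, with the flavoprotein subunit Sdha at -0.46 ± 0.26. Adjusted p were 0.460 and 0.494. In the other complexes the smallest p were those of Uqcrq, Cox6a1 and the ATP synthase subunit Atp5l, at 0.63 ± 0.37, 0.40 ± 0.25 and 0.48 ± 0.28, with adjusted p from 0.522 to 0.556. Nuclear members were also grouped by exon length, with all annotated exons of a gene merged. Those under 1 kb, of 1 to 3 kb and over 3 kb had medians of 0.27, 0.21 and 0.15 in this comparison. Nuclear genes outside the set had medians of 0.17, 0.07 and -0.04.

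The additive model, which compares 7 DEN/HFD with 8 chow mice across both treatments, called no member, against 1.32% of all kept genes. Unadjusted p were under 0.05 for 4 mtDNA members and 1 nuclear member, Sdhd, against 16.7% of all genes. The 4 mtDNA members were mt-Nd5 at -0.83 ± 0.29 (adjusted p = 0.153), mt-Co1 at -0.74 ± 0.27 (0.162), mt-Nd6 at 0.61 ± 0.25 (0.225) and mt-Nd4l at -0.68 ± 0.30 (0.255). mt-Co1 was called after quantile normalization, at -0.80 (adjusted p = 0.0223), and under no other alternative. The other 9 mtDNA members lay between -0.43 (mt-Atp8) and 0.08 (mt-Cytb), with mt-Nd1 at -0.29, mt-Co3 at -0.20, mt-Atp6 at -0.16, mt-Nd3 at -0.12, mt-Nd4 at -0.06, mt-Nd2 at -0.03 and mt-Co2 at 0.02. The nuclear members were positive in 64 of 78 cases, with a median of 0.10, against 49.6% positive among all kept genes. Those with the smallest p in their complexes were Sdhd at -0.31 ± 0.15, Cox6a1 at 0.30 ± 0.18, Uqcr11, a small subunit of complex III, at 0.34 ± 0.20, Ndufs6, a zinc-binding subunit of complex I, at 0.25 ± 0.15, and Atp5k at 0.33 ± 0.21, with adjusted p from 0.296 to 0.472. Cox6a1, whose promoter window is printed above, was at 2260, 5000 and 3420 in chow saline, 2530, 3210, 2740, 4730 and 3390 in chow MCOPPB, 4880, 4070, 3630 and 3080 in DEN/HFD saline and 3680, 4720 and 4600 in DEN/HFD MCOPPB, with overlap between the diets in both treatments. By merged exon length, the 18 members under 1 kb had a median of 0.20, the 41 of 1 to 3 kb 0.09 and the 19 over 3 kb 0.09. Merging adds the exons of all isoforms, so genes over 3 kb by this length can have shorter transcripts. Nuclear genes outside the set had medians of 0.15 (203 genes under 1 kb, 155 positive), 0.06 (2745 of 1 to 3 kb, 1675 positive) and -0.02 (7858 over 3 kb, 3565 positive). For MCOPPB with diet as an additive term, the medians were -0.18 (12 of 13 negative) and 0.02 (45 of 78 positive), against 50.0% positive among all genes; no member was called, against 0.372% of all genes, and 0 and 1 had an unadjusted p under 0.05, against 6.50%.

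The libraries with the lowest and highest levels of nuclear members were also extreme for nuclear genes under 1 kb outside the set. The members' mean level ran from 9.87 in chow saline 1 to 10.82 in chow MCOPPB 4, and the mean of the 203 genes under 1 kb from 8.26 in chow saline 1 to 9.04 in DEN/HFD saline 1. The mean of 2745 genes of 1 to 3 kb ran from 8.17 to 8.42 in these 2 libraries. The mean of 7858 genes over 3 kb ran the other way, from 7.94 in chow saline 1 to 7.84 in DEN/HFD saline 1 and in chow MCOPPB 4. The part of exon length in the members' differences was not tested. Within groups, the median residual SD was 0.52 for mtDNA members and 0.37 for nuclear members, beside 0.30 for all kept genes.

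**Figure D3:**
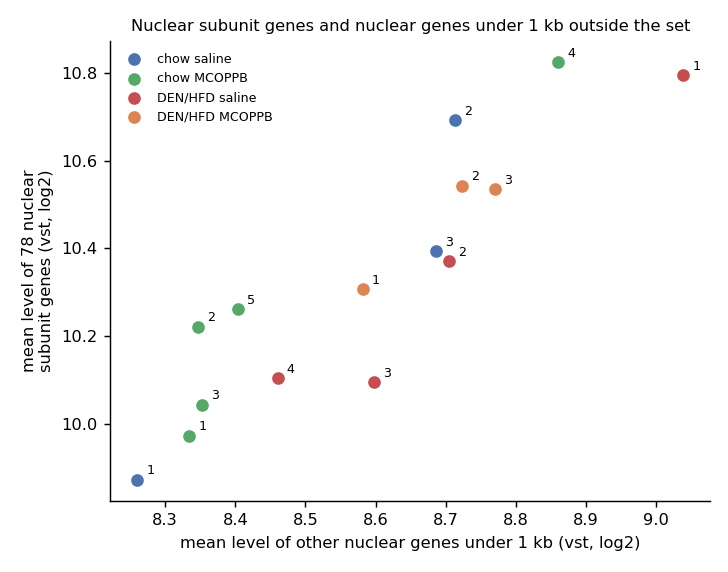
Mean level of the 78 kept nuclear OXPHOS subunit genes against the mean level of 203 other nuclear genes with an exon length under 1 kb (both vst, log2), 1 point per library with its replicate number, coloured by group. Chow saline 1 is lowest on both axes (8.26 and 9.87), and chow MCOPPB 4 and DEN/HFD saline 1 are highest on both.

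Differences within the mitochondrial genome were examined as ratios of neighbouring or functionally linked genes in the same library, where library scaling cancels. These ratios were chosen with values of these data known, and are descriptions. The ratio of mt-Nd5 to mt-Cytb was 15.8%, 18.5% and 14.9% in chow saline and 20.5%, 18.6%, 14.8%, 16.8% and 10.1% in chow MCOPPB. Under DEN/HFD it was 9.18%, 5.54%, 11.4% and 11.2% with saline and 10.9%, 7.08% and 6.95% with MCOPPB. The saline groups did not overlap, and among all chow mice only chow MCOPPB 5 fell within the DEN/HFD range. The share of gene pairs with such a separation was not computed, for this ratio or those below. Among single kept genes, 9.09% had saline groups that did not overlap. Group means were 16.4% ± 1.90 (SD, n = 3), 16.2% ± 3.98 (n = 5), 9.33% ± 2.73 (n = 4) and 8.31% ± 2.26 (n = 3).

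The genes mt-Nd6 and mt-Nd5 face each other on opposite strands. Their ratio was 0.164%, 0.372% and 0.506% in chow saline and 0.916% to 2.13% in DEN/HFD saline. These ranges did not overlap, but the ratio shares mt-Nd5 with the one above and is not independent of it. With mt-Cytb as the second gene, mt-Nd6 was at 0.0258% to 0.0753% in chow saline and 0.0775% to 0.196% in DEN/HFD saline. In MCOPPB mice that ratio overlapped, at 0.065% to 0.132% on chow and 0.0577% to 0.163% under DEN/HFD. For mt-Nd3 to mt-Co3 the saline groups overlapped, at 3.09% to 7.35% on chow and 3.43% to 7.85% under DEN/HFD. In MCOPPB mice the ratio of mt-Nd6 to mt-Nd5 was 0.386% to 1.31% on chow and 0.528% to 2.30% under DEN/HFD, and the ranges overlapped. The ratio of mt-Co1 to mt-Co2 was 122% to 206% in the 8 chow mice and, under DEN/HFD, either 62.4% to 77.5% (DEN/HFD saline 1 and 2 and DEN/HFD MCOPPB 2 and 3) or 132% to 143% (the other 3 mice). The 4 libraries at 62.4% to 77.5% were grouped by this ratio after its values were seen, and the counts of mt-Co1 are uncertain, as described below. These 4 libraries had the 4 lowest ratios of mt-Nd4l to mt-Nd4, 3.24% to 4.66%, against 5.19% to 9.70% in the other 11 libraries. Their mean of nuclear genes under 1 kb was 8.70 to 9.04, above the 8.46 to 8.60 of the other 3 DEN/HFD mice. In chow saline 2, chow saline 3 and chow MCOPPB 4 this mean was 8.71, 8.69 and 8.86. The ratio of mt-Co1 to mt-Co2 was 153%, 122% and 131% there, and that of mt-Nd4l to mt-Nd4 8.74%, 5.83% and 7.30%. How the level of genes under 1 kb relates to these ratios was not tested. For mt-Atp8 to mt-Atp6 the range was 7.28% to 14.5%, with group means of 11.9%, 12.5%, 9.73% and 10.6% in the order above; the group ranges overlapped.

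**Figure D4:**
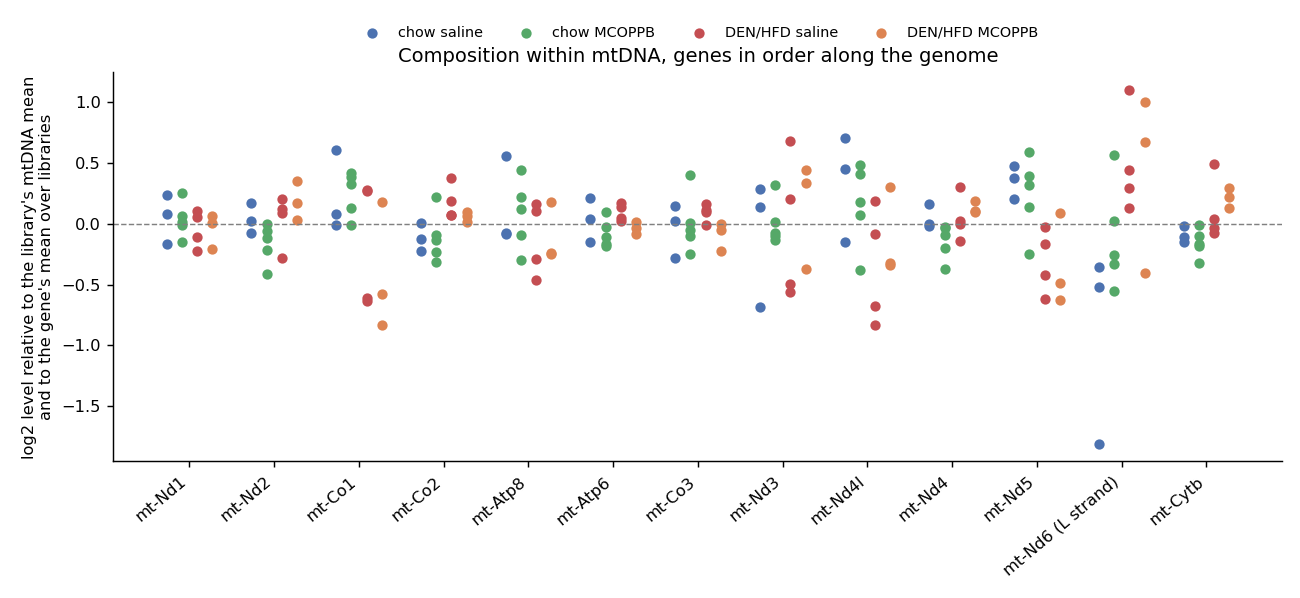
Level of each mtDNA member (log2) after subtraction of the library's mean over the 13 members and of the gene's mean over the 15 libraries, with genes in their order along the mitochondrial genome; points are libraries, coloured by group. For mt-Nd5 the chow saline libraries lie above all DEN/HFD libraries, and for mt-Nd6 below all DEN/HFD saline libraries. For mt-Co1 the DEN/HFD libraries fall into high and low ones, while for mt-Nd4l they are spread from -0.83 to 0.30.

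**Figure D5:**
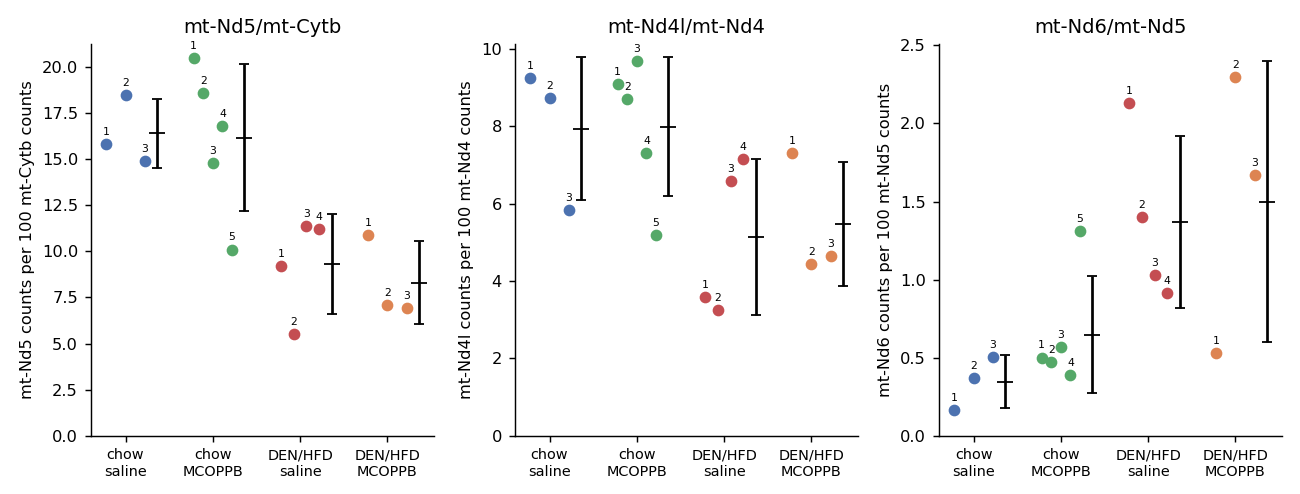
Ratios of normalized counts between mtDNA members in each library, as counts per 100 counts of the second gene; points are libraries with their replicate numbers, bars are group means ± SD. The mt-Nd5/mt-Cytb ratio averages 16.4 and 16.2 on chow and 9.33 and 8.31 under DEN/HFD, and mt-Nd6/mt-Nd5 in chow MCOPPB 5 (1.31) stands apart from the other 4 libraries of its group.

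The level of mt-Co1 depends on how reads were shared with a nuclear copy. Gm29216, a pseudogene of 492 bases at chr1:24615706-24616197, matches bases 1054 to 1545 of mt-Co1 at 486 of 492 positions (98.78%) and held 115000 to 301000 normalized counts. In the same block of mtDNA copies on chromosome 1, Gm28437, Gm28439, Gm28661 and Gm10925, identical to mt-Co3, mt-Nd4, mt-Co2 and mt-Atp6 over their length, had at most 24200. Gm28439 was at 0 in all 15 libraries, Gm28661 at 0 in 11, and Gm28438, which differs from mt-Nd3 at 1 of 345 positions, at 0 in 12. With Gm29216 added to mt-Co1, the additive difference for DEN/HFD changed from -0.74 to -0.55 ± 0.24 (adjusted p = 0.254), and the difference in saline mice from -0.84 to -0.60 ± 0.35. The counts of mt-Co1 and of the copies are therefore uncertain. Of mtDNA's ribosomal RNAs, mt-Rnr1 was at 3150 to 18500 and mt-Rnr2 at 3940 to 26500, and neither was called in any of the 7 comparisons; the difference of mt-Rnr2 was -1.19 ± 0.45 for MCOPPB on chow (adjusted p = 0.420) and -1.23 ± 0.48 for DEN/HFD in saline mice (adjusted p = 0.335).

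Genes that act on OXPHOS expression were read from lists. Of 20 regulators of mitochondrial biogenesis, all kept, 1 was called lower and 0 higher under DEN/HFD in the additive model, with a median of -0.13, against 0.579% of all kept genes called lower and 0.743% higher. It was Gabpa, the DNA-binding subunit of GABP. Its normalized counts were 296, 476 and 164 in chow saline and 304, 289, 314, 134 and 306 in chow MCOPPB. They were 101, 96.4, 162 and 179 in DEN/HFD saline and 120, 68.5 and 76.3 in DEN/HFD MCOPPB. Of the 8 chow mice, 6 lay above all DEN/HFD mice. Gabpa fell by 0.95 ± 0.18 on the log2 scale (adjusted p = 0.0197). The call was lost without DEN/HFD MCOPPB 2 (difference -0.89, adjusted p = 0.0676) or 3 (-0.91, adjusted p = 0.0719), and with the first RIN as a covariate (-0.75, adjusted p = 0.494). Within saline mice the difference was -0.82 ± 0.27 (adjusted p = 0.260) and within MCOPPB mice -1.07 ± 0.26 (adjusted p = 0.0744).

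Gabpa overlaps a member, Atp5j, which is named for that reason, after its values were seen. On chromosome 16 its start lies 701 bases inside Atp5j, a gene that encodes a coupling factor subunit of ATP synthase and is read from the other strand. Atp5j was at 1550 to 4100 normalized counts, with a difference of 0.19 ± 0.24 in the same model (adjusted p = 0.748). The 15 nuclear members with an ETS motif in the window had a median difference of 0.19 (13 positive), and the 49 kept ones without it 0.10 (42 positive). With and without the motif, the medians were 0.08 and 0.06 within saline mice and 0.28 and 0.22 within MCOPPB mice. For the NRF1 palindrome in the additive model they were 0.27 (5 members) and 0.11 (59 members). The part of either motif was not tested.

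Of 32 kept genes for mitochondrial transcription, RNA processing and mtDNA upkeep, 1 was called higher and 0 lower under DEN/HFD in the additive model, against 0.743% and 0.579% of all kept genes, with a median of -0.05. This was Rexo2, an exonuclease that degrades short RNAs in mitochondria, at 280 to 421 in all 8 chow mice and 465 to 671 in all 7 DEN/HFD mice. These ranges did not overlap, but the share of all kept genes with such a separation over both treatments was not computed. Rexo2 rose by 0.46 ± 0.11 (adjusted p = 0.0441). Its call was lost in 12 of the 15 fits that left out 1 library. It held without chow MCOPPB 2, chow MCOPPB 4 or DEN/HFD saline 4, and over all 15 the adjusted p ran from 0.0236 to 0.129. The call was also lost with no filter (adjusted p = 0.0691), with the second RIN as a covariate (adjusted p = 0.0774), with the first (adjusted p = 0.482) and with totals made equal without mtDNA (adjusted p = 0.146). Beside these calls, Cd68, a macrophage marker, and Col1a2, a collagen gene of stellate cells, were each the sole called gene of its marker list, higher by 0.80 ± 0.17 (adjusted p = 0.0296) and 1.06 ± 0.24 (adjusted p = 0.0370). Their part in the differences of Gabpa and Rexo2 was not tested.

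By limma, no gene was called in 5 further lists in any of the 7 comparisons: 46 kept assembly factors of the complexes, 78 mitochondrial ribosomal proteins, 25 electron carriers and exchangers, 18 enzymes of the citrate cycle and 18 import and porin genes. In the additive model for DEN/HFD, 32 assembly factors and 56 mitochondrial ribosomal proteins were positive, against 49.6% of all kept genes, with medians of 0.10 for each list. Of their genes, 5 and 6 had an unadjusted p under 0.05, against 16.7% of all genes. In the other 3 lists 3, 1 and 0 genes did, and 10, 8 and 8 were positive. Tfam, which packages mtDNA and starts its transcription, varied from 116 in chow saline 2 to 807 in chow saline 1. Within both chow groups it was lowest in the library with the highest mtDNA share, 116 in chow saline 2 and 167 in chow MCOPPB 4, while DEN/HFD saline 1, with the highest share of its group, was at 218 beside 164 to 629. In DEN/HFD MCOPPB, replicate 1 had both the highest mtDNA share and the highest Tfam, 392 beside 156 and 157. Polrmt was at 56.3 to 186, the mtRNA-stabilising Lrpprc at 562 to 960 and the coactivator Ppargc1a at 12.8 to 126. The electron carrier cytochrome c (Cycs) was at 833 to 2170 and cytochrome c1 (Cyc1), a subunit of complex III whose symbol lies outside the rule, at 618 to 1220.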

How the data were processed

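RNA of 15 mouse livers was sequenced from directional libraries made from 250 ng of RNA, in single reads of 75 nt. The authors deposited 1 table of log2 values, variance-stabilized in the manner of DESeq2, with a lowest value of 5.49 that 31133 of 54281 genes had in every library. The submitters' processing notes name Trimmomatic, STAR 2.7.0e, HTSeq, DESeq2 and GRCm38/mm10; the counting strand and the treatment of reads with several matches are not given in the sources used here. Of the gene identifiers, 54107 matched GENCODE M21, 53544 with the same version. All 15 columns were used, and the number of columns left out was 0.

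The stabilization was inverted to give normalized counts. A gene was kept at 22.5 normalized counts or more in at least 3 libraries. limma 3.58.1 in R 4.3.3 was fitted to the log2 values of 11568 genes with 4 group means (residual df 11, median prior df 6.34, mean-variance trend, two-sided, Benjamini-Hochberg over all kept genes, called at an adjusted p under 0.05), and with additive diet and treatment terms for 2 further comparisons. The fit was tested on simulated data. The p-values weigh each difference against the residual spread between these animals, which was pooled over groups and moderated over genes.

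The members and lists were chosen with earlier results of these data known. Named were all mtDNA members, called nuclear members, per comparison the nuclear member of each complex with the smallest p, the highest per kb, isoform pairs, and listed regulators with up to 2 called genes per list. Alternatives changed the filter, scale, normalization, samples fitted, RIN covariates, a replicate block, array weights and the libraries included.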

Additional observations from a re-analysis of the deposited data

Results flagged for a closer look

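In groups of 4 or 5 mice, 7 of 108 checks found a library far from the others of its group; chance gives about 1 in 20. Levels are deposited log2 values. In chow MCOPPB 4, mt-Nd2 stood at 18.38 against 16.95 to 17.33 in the other 4 mice, Ndufb2 at 9.70 against 8.43 to 8.77, and Atp5g1 at 10.63 against 9.65 to 9.92. The mt-Co1 level of DEN/HFD saline 2 was 17.91, below 18.87 to 19.01 in the other 3 mice. The mt-Atp6 level of DEN/HFD saline 1 was 19.23, above 18.24 to 18.38. Ndufa10 in DEN/HFD saline 4 was 10.61, below 11.20 to 11.32. The ratio of mt-Nd6 to mt-Nd5 in chow MCOPPB 5 was 1.31%, against 0.386% to 0.566% in the other 4 mice.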

How the results depend on the processing

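In 140 pairs of a gene and a comparison, the alternatives gave 3727 values, of which 160 changed sign. No member was called under any of them, except that quantile normalization gave 1 called member for DEN/HFD in the additive model, mt-Co1 at -0.80. With the first RIN as a covariate, the nuclear median was -0.51 for MCOPPB on chow, 0.77 for DEN/HFD in MCOPPB mice (mtDNA median 0.54) and 0.52 for the difference between the MCOPPB effects, and Atp5g2 on chow turned to -0.13. With no filter, the mtDNA minus nuclear level was 6.78 in chow saline, 6.47 in chow MCOPPB, 6.31 in DEN/HFD saline and 6.30 in DEN/HFD MCOPPB. The order of the groups was the same as with the filter. Quantile normalization turned mt-Nd1 (0.0038) and mt-Atp6 (0.0111) for MCOPPB on chow and mt-Atp6 (0.16) for MCOPPB in the additive model. Equal totals without mtDNA turned Sdha (0.0269), Uqcrc1 (0.0459) and Rexo2 (0.0474) for MCOPPB under DEN/HFD and Rexo2 (0.0272) for MCOPPB in the additive model. Cox8a became -0.0095 for DEN/HFD in saline mice without chow saline 1, and Ndufa10 -0.0418 for MCOPPB in the additive model with the second RIN. The causes were not tested.

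Leaving out each library in turn gave these ranges of the mtDNA and the nuclear median: -0.67 to -0.23 and -0.34 to 0.09 for MCOPPB on chow, -0.06 to 0.35 and 0.04 to 0.27 under DEN/HFD, -0.70 to -0.25 and -0.22 to 0.22 for DEN/HFD in saline mice, -0.09 to 0.26 and 0.14 to 0.36 in MCOPPB mice, 0.25 to 0.74 and -0.0094 to 0.41 for the difference between the MCOPPB effects, -0.30 to -0.06 and 0.04 to 0.21 for DEN/HFD in the additive model, and -0.29 to -0.06 and -0.07 to 0.12 for MCOPPB there. Without chow MCOPPB 4 and chow saline 2 together, an alternative chosen after seeing the data, the mtDNA median for DEN/HFD in the additive model was 0.04. All-gene calls there, 153, ran from 6 without DEN/HFD MCOPPB 3 to 460 without DEN/HFD saline 4, and were 0 with the first RIN.

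The replicate numbers are shared between groups but do not name a shared batch: deviations of 19 same-numbered pairs correlated at -0.0273 on average, 5 of them over 0.1, and those of 64 other pairs at 0.00838. With the replicate block, 0 members were called in all 7 comparisons, and the mtDNA and nuclear medians, in the order above, were -0.33 and -0.12, 0.17 and 0.19, -0.55 and -0.01, -0.02 and 0.27, 0.49 and 0.31, -0.24 and 0.11, and -0.08 and 0.02; the calls of Gabpa (adjusted p = 0.0630) and Rexo2 (adjusted p = 0.113) were lost.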
